A study of Rattus norvegicus with 3 samples.

Results

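Potassium channel genes, taken as every symbol beginning with Kcn, were followed in whole kidney of 3 male rats. The symbol table held 92 such genes besides Kcnj1, which the selection rule left out, and each was represented by its brightest transcript cluster naming 1 gene. Of these 92 genes, 30 (32.6%) reached the background level on at least 1 array and form the set described here. Among all 20667 genes taken the same way, 65.7% reached it. The background level is the 95th percentile of 1159 clusters of olfactory receptor genes (Olr symbols), taken as silent in kidney, and stood at 5.33 on the deposited log2 scale. Each rat gave 1 array: 1 control rat, 1 rat labelled day 2 and 1 rat labelled day 5 of ethylene glycol (EG) by mouth at a dose of 8 g/kg. EG is the glycol of antifreeze, which liver enzymes convert to glycolate and then oxalate, and calcium oxalate can precipitate in kidney tubules. The labels speak both of dosing over 2 or 5 days and of sampling 2 or 5 days after dosing, so whether EG was given once or repeatedly cannot be told apart. The labels state neither strain nor age, nor what the control rat received.

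Potassium channels let potassium ions leave the cell along their gradient and so set the membrane voltage that drives other transport. In the kidney, inward rectifiers of the basolateral membrane recycle the potassium brought in by the sodium pump, apical channels secrete potassium into the urine, and tandem-pore channels carry background currents. Pore-forming subunits assemble with one another and with auxiliary subunits, and the auxiliary partner alters gating, trafficking or drug response.

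Each group being 1 rat, no difference could be tested, and every difference describes these 3 rats only. Medians of 6.21, 6.26 and 6.30 log2 were found for the control, day 2 and day 5 arrays, and 28, 26 and 24 of the 92 channel genes lay at or above the level on them. Values under the level were set to it, so a difference with 1 array under the level is a lower bound. Signals of different clusters depend on their probes, so levels are compared between arrays and not between genes. The thick ascending limb marker Umod, between 18.67 and 18.79 log2, and the proximal tubule marker Slc34a1, between 17.54 and 18.70, were bright on all 3 arrays, as the kidney label calls for. Because whole tissue was measured, fewer cells of a type and less RNA per cell cannot be told apart.

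Every channel family except the ether-a-go-go genes had members above the level, where 65.7% of all genes lay. The inward rectifiers (Kcnj) had 8 of 14 genes there, the tandem-pore channels (Kcnk) 3 of 14, the calcium- or sodium-activated channels 4 of 8, the voltage-gated channels 8 of 32 and the auxiliary subunits 7 of 16. None of the 8 ether-a-go-go genes (Kcnh) and none of the 8 Kcna genes, which encode the Shaker-type voltage-gated channels, reached it, with highest values of 5.08 and 4.94 log2. Of the 3 Kcnab genes, which encode the cytosolic beta subunits of the Shaker-type channels, 2 reached it. Both did so on 2 arrays, at 5.82 log2 at most. Just inside the level was Kcnip2, with a highest value of 5.57 log2, and the genes just outside it were Kcnk6 at 5.30 and Kcnj14 at 5.24. Of 30 members, 21 were above the level on all 3 arrays, 6 on 2 arrays and 3 on 1 array.

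**Figure D1:**
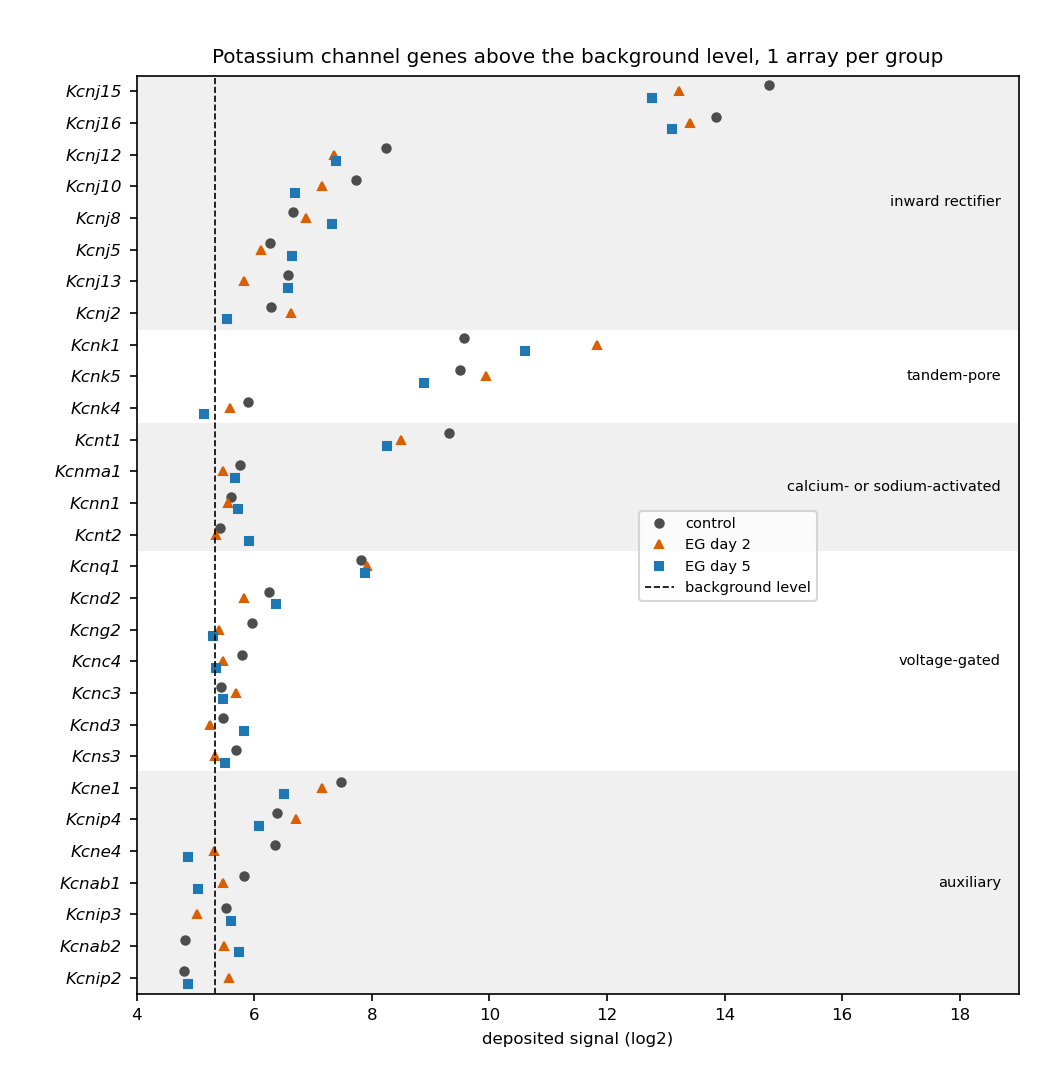
Deposited log2 signal (horizontal axis) of 29 of the 30 potassium channel genes above the background level (dashed line, 5.33), by channel family, with circles for the control rat, triangles for EG day 2 and squares for EG day 5. Kcnj15 is brightest in the control at 14.76, and Kcnk1 is brightest at EG day 2 at 11.84.

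At EG day 2, 1 of the 30 channel genes was at least 2-fold higher than in the control (3.33%), beside 4.45% of the 13573 genes above the level. Kcnk1 was that gene. At least 2-fold lower were 2 channel genes (6.67%), Kcnj15 and Kcne4, beside 2.45% of all genes. Kcne4 entered the set through its control value alone (6.35 log2), so it could differ from the control only downwards. At a 1.5-fold threshold 1 channel gene was higher (3.33%) beside 14.8% of all genes, and 6 were lower (20.0%) beside 9.19%. The median difference over the 30 genes was -0.24 log2, with quartiles of -0.45 and 0.14, and over all genes above the level it was 0.05.

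At EG day 5, the later array also had 1 gene at least 2-fold higher than in the control, again Kcnk1, beside 4.75% of all genes. The genes at least 2-fold lower numbered 4 (13.3%) beside 3.62% of all genes, and they were Kcnj15, Kcnj10, Kcnt1 and Kcne4. Of these, Kcne4 is again in the set through its control value alone. At 1.5-fold, 2 channel genes were higher (6.67%) beside 15.1% of all genes, and 10 were lower (33.3%) beside 12.0%. Their median difference was -0.15 log2, with quartiles of -0.72 and 0.10, and that of all genes was 0.01. Both comparisons use the same control array, so they are not independent of each other.

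Between the EG arrays, 0 channel genes were at least 2-fold higher at day 5 than at day 2, beside 2.21% of all genes. At least 2-fold lower at day 5 were 3 of 30, Kcnk1, Kcnj2 and Kcnk5, beside 3.33%. At 1.5-fold 1 gene was higher, Kcnj13, beside 9.33% of all genes, and 5 were lower (16.7%) beside 12.8%. The median was -0.06 log2 over the channel genes and -0.03 over all genes. With sets of 30 genes, a share of 3.33% stands for a single gene.

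**Figure D2:**
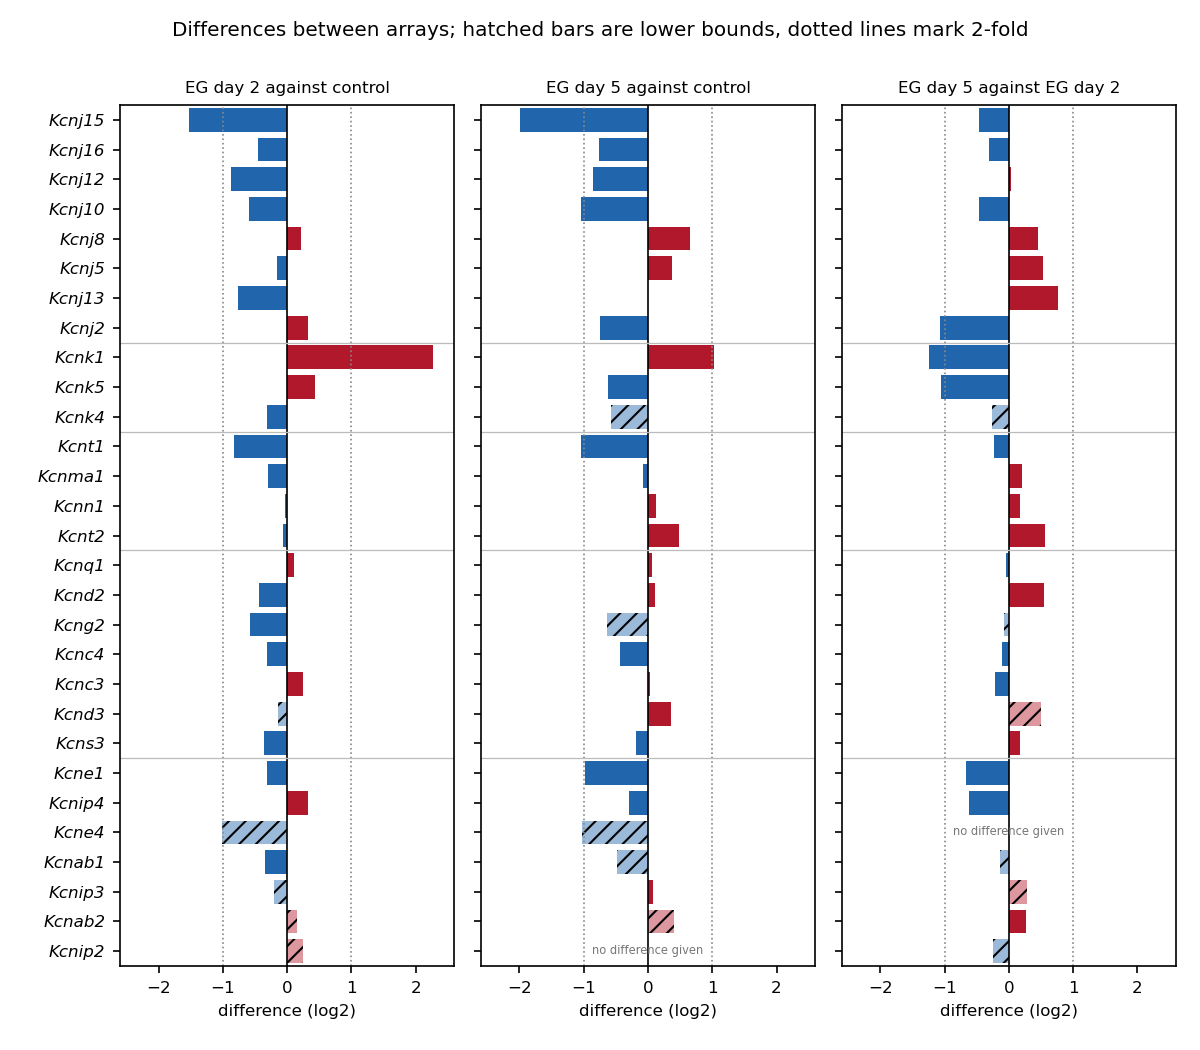
Differences between arrays (log2, horizontal axis) for 29 of the 30 channel genes in the 3 comparisons, with red bars for higher and blue bars for lower, hatched bars for lower bounds and dotted lines at 2-fold. The longest bars are Kcnk1 at EG day 2 (2.27) and Kcnj15 at EG day 5 (-1.99). A gene with both arrays under the level has no bar.

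**Figure D3:**
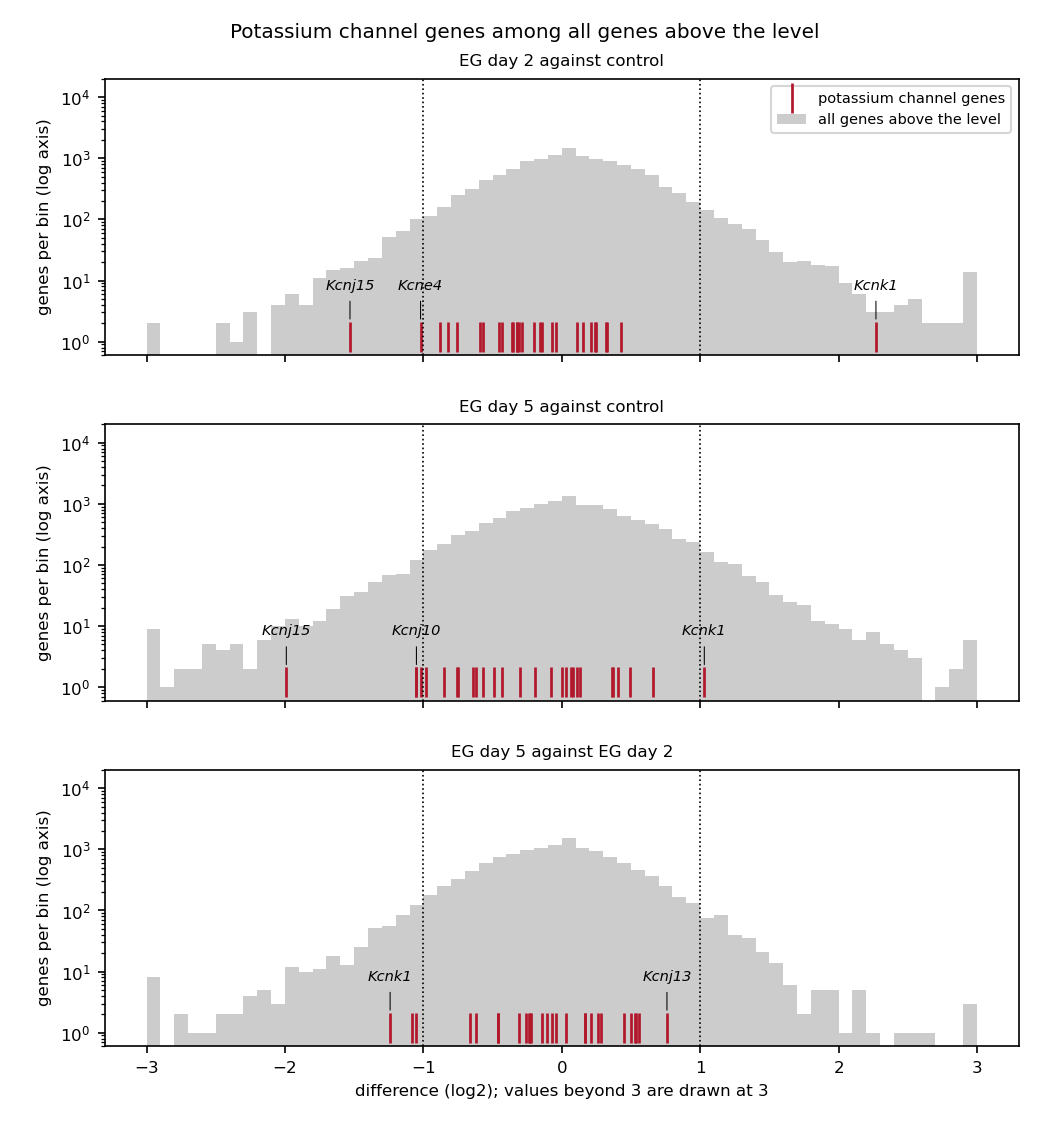
Number of genes per bin of log2 difference (log axis) for the 13573 genes above the background level in grey, with red ticks for 29 channel genes. A channel gene with both arrays of a comparison under the level has no tick there. Most ticks lie between the dotted 2-fold lines in each comparison, and Kcnk1 at EG day 2 (2.27) stands far to the right.

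The tubular inward rectifier genes Kcnj15, Kcnj10 and Kcnj16 were lower on both EG arrays. Kcnj15 encodes Kir4.2, a subunit of the basolateral potassium channel of the proximal tubule in mouse. Its signal was 14.76 log2 in the control, 13.23 at EG day 2 and 12.77 at EG day 5. The control array was highest and EG day 5 lowest. It was 2.89-fold lower at EG day 2 (-1.53 log2, rank 61 of the 13573 genes counted from the lowest difference) and 3.97-fold lower at EG day 5 (-1.99 log2, rank 49).

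Kcnj10 encodes Kir4.1, the basolateral channel of the distal convoluted tubule, whose loss in humans causes salt wasting. It stood at 7.74, 7.15 and 6.69 log2 on the control, day 2 and day 5 arrays, in the same order over the arrays as Kcnj15. The differences from control were -0.59 and -1.05 log2 (1.51-fold and 2.07-fold lower). Kcnj16 encodes Kir5.1, which forms mixed channels with Kir4.1 and Kir4.2. Its values were 13.86, 13.41 and 13.10 log2 on the control, day 2 and day 5 arrays, so EG day 5 was again lowest. The differences were smaller than those of its partners, at -0.45 and -0.76 log2.

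The promoter windows of these subunits, which assemble with one another, are printed because the genes stood in the same order over the arrays. That order, control highest and EG day 5 lowest, was not particular to them. Kcnt1 and Kcne1, among other members, had it too, and its share over all genes was not counted. Each window runs from 250 bases before to 50 bases after the RefSeq transcription start on the plus strand of assembly GRCr8, with no position of the array's own build (rn6) involved. Capitals mark matches, on either strand, to the CCAAT box, spelled by its name. They also mark the GC box, searched as GGGCGG on both strands, and the AP-1 motif, searched on both strands as the letters TGANTCA. The E-box, searched as CACGTG on both strands, had no match in these windows. The same held for the first letters of the HNF1 motif, searched on both strands as GTTAAT, and for the TATA box, searched on both strands with its usual spelling of TATAAA. No matches overlapped.
Kcnj15, chr11:48070700-48070999: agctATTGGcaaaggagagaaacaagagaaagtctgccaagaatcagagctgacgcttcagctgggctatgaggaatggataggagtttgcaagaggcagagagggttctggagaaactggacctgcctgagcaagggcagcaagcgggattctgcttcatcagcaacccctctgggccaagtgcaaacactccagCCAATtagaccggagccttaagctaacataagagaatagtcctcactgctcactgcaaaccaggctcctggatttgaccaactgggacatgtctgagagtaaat
Kcnj10, chr13:87334260-87334559: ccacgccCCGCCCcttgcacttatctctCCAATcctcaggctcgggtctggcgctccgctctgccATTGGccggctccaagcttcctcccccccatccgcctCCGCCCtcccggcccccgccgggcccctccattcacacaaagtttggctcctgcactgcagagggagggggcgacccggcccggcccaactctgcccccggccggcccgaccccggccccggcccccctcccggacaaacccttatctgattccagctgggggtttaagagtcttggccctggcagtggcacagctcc
Kcnj16, chr10:96517074-96517373: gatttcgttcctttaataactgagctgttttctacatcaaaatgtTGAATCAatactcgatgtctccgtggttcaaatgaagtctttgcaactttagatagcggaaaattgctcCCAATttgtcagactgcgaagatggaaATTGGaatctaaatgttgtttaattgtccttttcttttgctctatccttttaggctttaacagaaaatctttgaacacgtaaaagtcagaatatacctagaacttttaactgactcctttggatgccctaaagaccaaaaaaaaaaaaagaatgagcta
The windows differ widely in base composition, with 50.3% G or C in Kcnj15, 70.3% in Kcnj10 and 34.0% in Kcnj16, where the median of all 33469 windows is 51.7%. Each holds 2 CCAAT matches, a motif found in 37.5% of all windows. GC box letters occur in Kcnj10 only of these windows, and in 33.1% of all windows. The AP-1 letters occur in Kcnj16 only, and in 7.33% of all windows. Of the 30 channel genes, 23 had a window, 25 windows in all. Among those 25 windows 18 (72.0%) held the GC box, 9 (36.0%) the CCAAT box and 1 the TATA box, the last beside 14.2% of all windows. A match describes letters and does not show a bound factor.

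Most proximal tubule markers were lower on the same arrays, and the distal convoluted tubule markers differed among themselves. All 8 proximal tubule markers were above the level, and their summed signal read 20.58 log2 in the control against 19.73 and 19.76 on the EG day 2 and EG day 5 arrays. On each EG array 5 of 8 were at least 2-fold lower than the control, beside 2.45% and 3.62% of all genes (medians -1.04 and -1.10 log2). The 5 were not the same, with Lrp2 among them at EG day 2 only and Cubn at EG day 5 only. Aqp1 (0.04 and -0.19) and Slc22a6 (-0.36 and -0.29) differed little. All 3 distal convoluted tubule markers were above it, with summed signals of 15.88, 15.13 and 14.79 log2, a sum made up almost wholly of the transporter gene Slc12a3, which differed by -0.75 and -1.09. Trpm6 differed from the control by 0.10 and -0.70 log2. Pvalb, near the level, was at 5.72, 5.10 and 5.57 log2, at least 0.39 under the control at EG day 2 and 0.15 under it at EG day 5. The part of these marker differences in the values of Kcnj15, Kcnj16 and Kcnj10 was not tested.

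The other inward rectifiers went in several directions. Kcnj12 (Kir2.2) stood at 8.24 log2 in the control against 7.36 and 7.39 on the day 2 and day 5 arrays, so the EG arrays lay close together and 1.84-fold and 1.80-fold under the control. Kcnj2 encodes Kir2.1, like Kir2.2 a strong rectifier known from heart and skeletal muscle. It was at 6.29, 6.62 and 5.54 log2 on the control, day 2 and day 5 arrays, highest at EG day 2 and lowest at EG day 5, where it was 2.11-fold under EG day 2. Of the 4 skeletal muscle markers 2 were above the level, Myh4 and Tnnt3 were under it, and the summed signal was 6.75, 6.55 and 6.75 log2. Kcnj2 and Kcnj16 are neighbouring genes in the RefSeq table. At EG day 2 they lay on opposite sides of the control (0.33 and -0.45 log2), and at EG day 5 both were lower by similar amounts (-0.75 and -0.76).

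Kcnj8 encodes Kir6.1, the pore of the ATP-sensitive channel of vascular smooth muscle and pericytes. Its values were 6.67, 6.88 and 7.33 log2 on the control, day 2 and day 5 arrays, and it was the only inward rectifier at least 1.5-fold higher than the control at EG day 5 (1.58-fold). Abcc9, which encodes the sulphonylurea receptor that pairs with Kir6.1, went 8.23, 7.87 and 8.35 log2. All 7 smooth muscle and pericyte markers were above the level, with summed signals of 11.70, 12.13 and 12.65 log2, but the list did not move as one. Tagln (2.28 log2) and Pdgfrb (1.76) were at least 2-fold higher than the control at EG day 5 and Acta2 was at 0.68, while Myh11 (-0.38), Rgs5 (-0.40), Notch3 (-0.11) and Cspg4 (at least 0.11 log2 under the control) were lower. The median of the 7 was -0.11 log2 on each EG array. The part of these markers in the Kcnj8 value was not tested.

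Kcnj5 (Kir3.4, a G protein-gated channel known from heart and adrenal gland) was at 6.27, 6.11 and 6.64 log2, with differences from control of -0.16 and 0.37. Kcnj13 (Kir7.1, a channel of transporting epithelia) was at 6.58 log2 in the control, 5.82 at EG day 2 and 6.58 at EG day 5. The EG day 2 array alone was lower, by 1.69-fold, and the control and EG day 5 values were equal.

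A tandem-pore gene had the largest positive difference of the 30 genes. Kcnk1 encodes TWIK-1, a weakly conducting background channel found in several kidney segments. Its signal was 9.57 log2 in the control, 11.84 at EG day 2 and 10.60 at EG day 5. Both EG arrays were above the control, and EG day 2 was highest. The difference at EG day 2 was 2.27 log2 (4.82-fold), rank 34 of the 13573 genes from the highest, and at EG day 5 it was 1.03 log2 (2.04-fold, rank 600). From EG day 2 to EG day 5 the signal was lower by 2.36-fold.

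On the same arrays the summed signal of the fibroblast markers, all 4 above the level, was 14.57, 16.27 and 15.83 log2 in the control, day 2 and day 5 arrays. That sum was mostly Dcn, at 14.20, 16.06 and 15.24 log2. The median difference of the 4 markers from the control was larger at EG day 5 (1.82 log2) than at EG day 2 (0.82), and the day 5 values of Col1a1 and Col3a1 exceeded those of day 2 by 3.73-fold and 4.08-fold, whereas Kcnk1 was lower at day 5. The summed macrophage signal was 15.26, 16.92 and 17.19 log2, with 6 of 7 markers above the level and Itgam under it, and it was mostly Lyz2 (15.24, 16.91 and 17.18). The medians of these 6 were 0.90 and 1.67 log2 over the control. At EG day 2 that median counts Cd163, under the level on both arrays, as unchanged. Adgre1 was lower than the control at EG day 2 (-0.26 log2), and all 6 were higher at EG day 5. All 5 principal cell markers were above the level, with summed signals of 13.31, 13.67 and 13.60 log2 and median differences of 0.39 and 0.23. Among them Avpr2 differed by -0.17 and 1.23 log2 and Scnn1b by 0.68 and -0.06, while Aqp2, Aqp3 and Scnn1g were higher on both EG arrays. The part of these markers in the Kcnk1 values was not tested.

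Kcnk5 encodes TASK-2, an alkali-activated channel linked in mouse to bicarbonate handling by the proximal tubule. It was at 9.51 log2 in the control, 9.94 at EG day 2 and 8.89 at EG day 5, highest at EG day 2 and lowest at EG day 5. The values lay 1.35-fold above and 1.54-fold under the control, and EG day 5 was 2.07-fold under EG day 2, a difference (-1.05 log2) that was under 2-fold after quantile normalization (-0.97) and cyclic loess (-0.96). Its order over the arrays was that of Kcnj2 and differed from that of Kcnj15, although both have been described in the proximal tubule. Kcnk4 (TRAAK, a mechanically gated channel) was near the level, at 5.90, 5.59 and 5.15 log2.

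Among the calcium- or sodium-activated channels, Kcnt1 had the largest differences from the control. It encodes Slack, a sodium-activated channel known from neurons, and was at 9.31 log2 in the control, 8.49 at EG day 2 and 8.26 at EG day 5. The control was highest, and the EG arrays were 1.77-fold and 2.07-fold under it. Its relative Kcnt2 (Slick) was close to the level at 5.42, 5.35 and 5.91 log2, with EG day 5 highest, and its difference between the EG arrays (0.56) was larger than that of Kcnt1 (-0.23). Kcnma1, which encodes the large-conductance channel of flow-dependent potassium secretion, was at 5.76, 5.47 and 5.68 log2, close to the level on each array. None of the 4 Kcnmb genes, which encode its beta subunits, reached the level. Of the 6 nerve markers 4 were above the level, with summed signals of 8.33, 8.17 and 8.13 log2, and Snap25 and Syt1 were under it on all arrays.

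Kcnq1 and Kcne1 encode the pore and the auxiliary subunit of a channel of the apical proximal tubule membrane in mouse. Kcnq1 was at 7.81, 7.92 and 7.88 log2 on the control, day 2 and day 5 arrays, a range of 0.11 log2, and the sign of its differences turned under some rescalings of the arrays. Kcne1 was at 7.48, 7.16 and 6.50 log2 on the same arrays, with EG day 5 lowest, and differed by -0.32 and -0.98 log2 from the control (1.25-fold and 1.97-fold lower). At EG day 5 it was beyond 2-fold after quantile normalization (-1.1), median centring (-1.07) and cyclic loess (-1.08). The pore gene and its partner therefore had unequal differences at EG day 5.

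Kcne4 encodes an auxiliary subunit that inhibits the Kcnq1 channel when both are expressed in cells. It was at 6.35 log2 in the control and under the level on both EG arrays, at 5.31 and 4.88. It was at least 2.03-fold lower on each, and no fold is given between the EG arrays.

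The other voltage-gated channels lay within about 1 log2 of the level. Kcnd2 (Kv4.2), which with Kcnd3 (Kv4.3) carries rapidly inactivating current, was at 6.26, 5.83 and 6.37 log2. Kcnd3 was at 5.47, 5.25 and 5.83, so EG day 2 was lowest for both. For Kcnd3 that value was under the level, and its difference from the control (-0.14 log2) is a lower bound in size. Dpp6, which encodes a membrane partner of these channels, was also lowest at EG day 2, with 6.79 log2 in the control, 6.06 at EG day 2 and 6.76 at EG day 5. Its highest value was in the control, whereas those of Kcnd2 and Kcnd3 were at EG day 5. Of the Kcnip genes, which encode their calcium-binding partners, Kcnip4 was at 6.39, 6.71 and 6.09 log2, highest at EG day 2. Kcnip3, near the level, was at 5.53, 5.03 and 5.61 log2, lowest at EG day 2 and highest at EG day 5. Kcnip2 is given below. No voltage-gated gene was 2-fold apart in any comparison. The shares of all genes were 2.21% to 4.75% per direction, so for a set of 8 that is no result about the family. At EG day 5, 1 of 8 (12.5%), Kcng2, was at least 1.5-fold lower (at least 1.56-fold), beside 12.0% of all genes.

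Kcnab2 was the only member above the level on both EG arrays and under it in the control, at 4.82, 5.48 and 5.74 log2. The bound on its difference at EG day 5 was 1.33-fold higher. Kcnab2 entered the set through its EG values alone, so it could differ from the control only upwards. Kcnab1 went the other way, at 5.82, 5.47 and 5.05 log2. Kcnip2 was above the level at EG day 2 only, at 5.57, and its 3 other clusters lay between 3.62 and 4.27 on all arrays. It is in the set through that value alone, so EG day 2 could only be its highest array.

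Of 28 channel genes listed for their known presence in kidney, 14 were above the level on at least 1 array, beside 65.7% of all genes. The other 14 were under the level on all 3 arrays, with values from 2.77 to 5.30 log2. Those under it were Kcnj3, Kcnj11, Kcnk2, Kcnk3, Kcnk6, Kcnk13, Kcne2, Kcne3, Kcnmb1, Kcnmb2, Kcnmb4, Kcnn4, Kcna3 and Kcna10. A value under the level was not distinguishable from silent genes by these probes and does not show absence.

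Genes that handle potassium beside the channels differed mostly by small amounts. Of 27 such genes 26 were above the level. At EG day 2, 1 was at least 2-fold higher (3.85%) and 1 lower (3.85%) than in the control, beside 4.45% and 2.45% of all genes. At EG day 5, 1 was higher (3.85%) and 2 lower (7.69%), beside 4.75% and 3.62%. The medians were 0.08 and -0.03 log2. Sgk1, a hormone-induced kinase that raises sodium and potassium transport in the distal nephron, was at 14.52 log2 in the control, 15.86 at EG day 2 and 12.89 at EG day 5. Its differences from control were 1.34 and -1.63, so the EG arrays lay on opposite sides of the control.

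Fxyd2 and Fxyd4 encode small regulators of the sodium pump. Fxyd2 was at 17.57, 16.43 and 16.98 log2, lowest at EG day 2 (-1.14), and Fxyd4 at 7.61, 7.36 and 8.86, highest at EG day 5 (1.25). The beta subunit gene of the pump, Atp1b1, was at 17.29, 16.66 and 17.14, lowest at EG day 2. The epithelial sodium channel genes Scnn1a, Scnn1b and Scnn1g, whose current drives potassium secretion, differed from the control by -0.28, 0.68 and 0.39 log2 at EG day 2 and by -0.25, -0.06 and 0.23 at EG day 5. Of 13 partner genes outside the Kcn symbols, 5 were above the level, and none of these 5 was 2-fold apart in any comparison. The shares of all genes ran from 2.21% to 4.75% per direction, so a set of 5 without such a gene is no result about the partners.

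**Figure D4:**
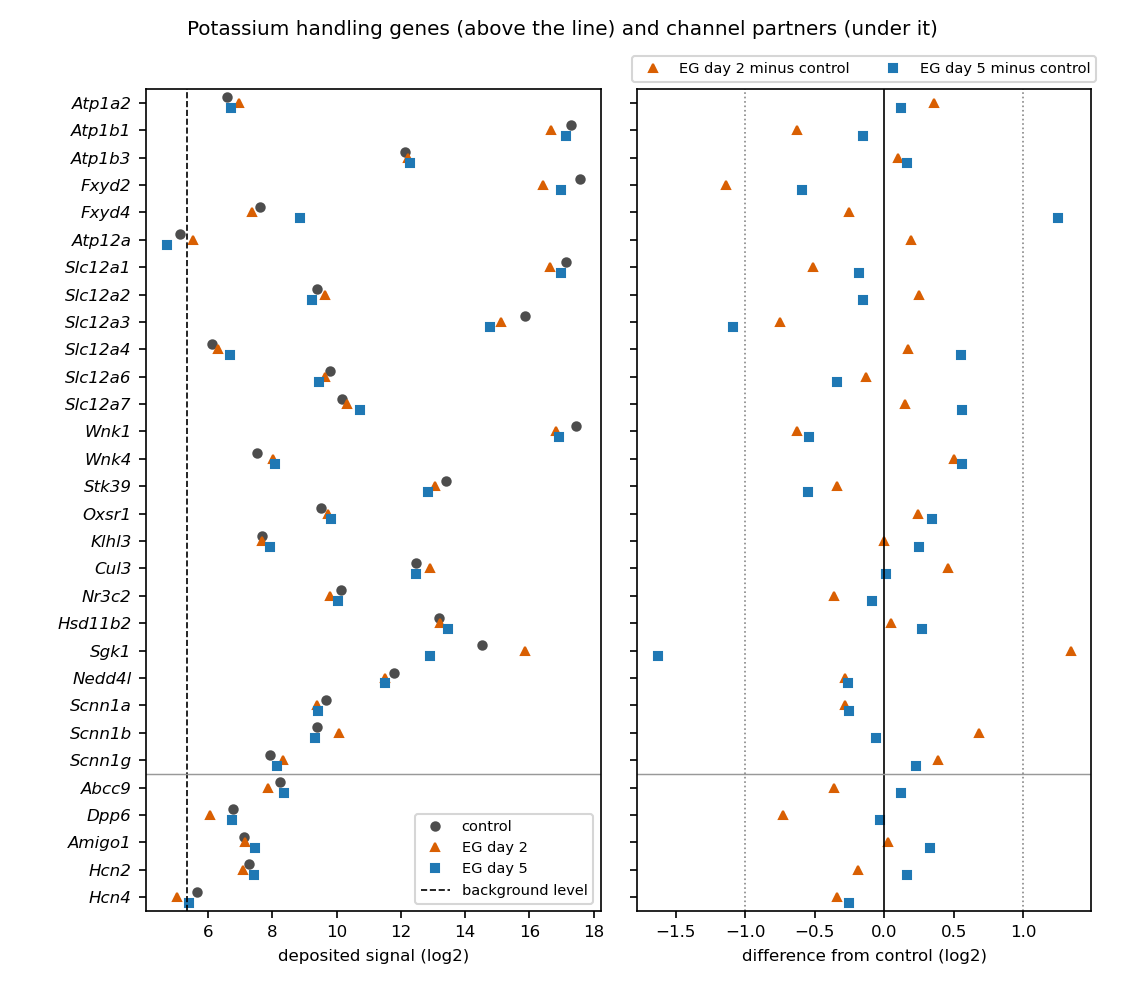
Left, deposited log2 signal of 25 of the 26 potassium handling genes and the 5 channel partners above the background level (dashed line) on the 3 arrays. Right, log2 differences of both EG arrays from the control, with dotted lines at 2-fold. Sgk1 lies at 1.34 and -1.63 on opposite sides of the control, and Fxyd4 at EG day 5 (1.25) is the only other gene beyond the upper line.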

How the data were processed

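Whole-kidney RNA was labelled with biotin and measured on Clariom S arrays, 1 per rat, per the labels' protocols. The authors summarised probes into 1 log2 signal per transcript cluster with Transcriptome Analysis Console, using an annotation of build rn6 and no filter, per the file headers. The submitters' processing notes name the same program and build. Its version, background correction and between-array normalization are not given in the sources used for this work. Values as deposited have 2 decimals and reach 19.93, so folds hold on this scale only. Both deposited tables held the same values (69564 of 69564). Of 23188 clusters, the 21502 naming 1 gene were used, which gave 20667 genes, 13573 of them above the level of 5.33 log2. Olr1, the oxidised LDL receptor, was left out of the olfactory clusters. All 92 channel symbols were current in the RefSeq table of GRCr8.

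With 1 array per group no test was possible, so counts at 2-fold and 1.5-fold and medians are set beside those over all genes. Values are given for members at least 2-fold apart in any comparison, the 10 brightest members and 28 channels listed as known in kidney. Other members were named after their values were seen. The members, lists and level were chosen with earlier results of these data known. Quantile normalization and cyclic loess used limma 3.58.1 in R 4.3.3, and other steps used Python 3.11.15, pandas 2.3.3 and numpy 2.4.6. The calculation of differences was tested on simulated data. Median centring, other levels, the mean over clusters and the second table were further alternatives. The number of arrays limits the precision. In all, 1 channel gene and 1 potassium handling gene are in the counts and medians but are not reported here by name or drawn.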

Additional observations from a re-analysis of the deposited data

Results flagged for a closer look

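For 9 of the 30 channel genes the EG day 2 and EG day 5 arrays lay on opposite sides of the control, which is what marked them. The same held for 27.9% of the 13573 genes above the level, a share close to that of the channel genes. The difference between the times was not tested, since each time is 1 rat. Kcnj2 (0.33 and -0.75 log2 from control) and Kcnk5 (0.43 and -0.62) had gaps of 1.08 and 1.05 log2 between the times. The gaps were 0.62 for Kcnip4, 0.56 for Kcnt2, 0.54 for Kcnd2, 0.53 for Kcnj5, 0.50 for Kcnd3, 0.28 for Kcnip3 and 0.17 for Kcnn1. Those of Kcnd3 and Kcnip3 are lower bounds, because their EG day 2 values were under the level.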

How the results depend on the processing

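No paired analysis was possible because each group holds 1 array. No replicate could be left out. Each of the 11 differences of at least 2-fold named above kept its direction or reached 0 under the 9 settings of scaling, level, cluster rule and source table. Only the settings of scaling could have turned a sign. The source table held the same values, each of these genes had 1 cluster, and a changed level could not reverse differences of this size. The count of channel genes above the level was 75 with the level at the median of the olfactory clusters, 14 at the median of all genes and 92 without a level. Genes at least 2-fold higher at EG day 2 then numbered 2 with the olfactory median and 3 without a level. Those at least 2-fold lower at EG day 2 numbered 1 with cyclic loess (Kcne4 at -0.99) and 1 at the all-gene median, where Kcne4 has no difference left and Kcnj2 differs by -0.22 between the EG arrays. At EG day 5, centring on array medians left 0 genes at least 2-fold higher, since Kcnk1 stood at 0.94. The 4 genes at least 2-fold lower at EG day 5 became 5 with quantile normalization, median centring and cyclic loess, Kcne1 being the gene gained. They also numbered 5 without a level, and 3 at the all-gene median. Between the EG arrays, the 3 genes at least 2-fold lower became 5 without a level, 4 with the olfactory median and 2 at the all-gene median, with quantile normalization and with cyclic loess. Kcnk5 was the gene lost under those 2 normalizations, at -0.97 and -0.96. Median differences were -0.11 (olfactory median) and -0.09 (all-gene median) at EG day 2, and -0.31 and -0.27 at the all-gene median for EG day 5 against control and against EG day 2. At 1.5-fold the counts of lower genes were 6, 10 and 5 in the 3 comparisons, and of higher genes 2 at EG day 5 and 1 between the EG arrays. The cause was not tested for the counts that moved with scaling. Over all genes at EG day 5, 4.75% were 2-fold up and 3.62% 2-fold down as deposited, against 3.65% and 4.78% after median centring.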

Other observations

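A pair of clusters named a Kcn gene together with another gene and were not used above. The cluster of Trim13 and Kcnrg was at 6.19 log2 in the control, 6.22 at EG day 2 and 6.08 at EG day 5. The cluster of LOC102548448 and Kcne1 was under the level throughout, at 3.48, 3.89 and 3.57 log2. Among pairs of channel genes that are neighbours in the RefSeq table, Kcnj15 and Kcnj6, Kcnj10 and Kcnj9, and Kcnk5 and Kcnk16 each had 1 gene above the level and 1 under it on all arrays.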
